A study of Danio rerio with 2 samples.

Results

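The collagen genes were followed across the cell classes of the injured zebrafish ventricle. All rows whose symbol is that of a collagen chain were taken, 54 of the 32057 rows in the gene tables, and the 23 with at least 20 unique molecular identifiers (UMIs) over the kept cells were described. Of the other 31 rows, 17 had 0 UMIs. The 23 genes comprised 10 fibrillar collagens, 4 basement membrane collagens and 9 others, and 19 of them had at least 200 UMIs. Just inside the limit stood col27a1b with 31 UMIs, the second of 2 rows named col6a3 with 38 and col2a1b with 46. Just outside it stood col4a5 and col15a1b with 12 each.

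Ventricles were taken 120 hours after cryoinjury, in which a cooled probe kills part of the ventricular wall, and the injured tissue with its border zone was dissociated and cleared of dead cells. One library was made from cd74a; cd74b mutants, which carry CRISPR/Cas9-induced alleles (bns454 and bns456) in both genes of the zebrafish CD74 invariant chain, and 1 from wild-type fish. All fish of the study were of the AB strain and 3 to 12 months old. Each library pooled 4 ventricles, from 2 females and 2 males, so each genotype is 1 sample. No test between genotypes was therefore possible, no p-value is given, and genotype cannot be told apart from the pool or the library. All intervals are 95% and cover counting error only.

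Collagens are secreted proteins of 3 chains wound into a triple helix. Fibrillar types I, V and XI assemble into the fibres that give a scar its tensile strength, with type I as the bulk and types V and XI as minor chains that start fibrils and limit their width. Type IV forms the sheet-like network of basement membranes under endothelium and epithelium and around muscle cells, where type XVIII also lies. Type VI forms beaded filaments around cells, types XII and XVI sit on fibril surfaces, and type VIII forms networks in vessel walls. In the zebrafish heart, fibroblasts derived from the epicardium, together with endocardial cells, are known to deposit collagen after injury, and the scar is later resolved.

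The mutant library held 15142 barcodes, of which 7174 (47.4%) were kept as cells, and the wild-type library 4607, of which 3589 (77.9%) were kept. Nearly all removed barcodes had too few genes. The median share of mitochondrial UMIs per kept cell was 22.3% in the mutant library and 14.99% in the wild-type library. The libraries shared 15 barcodes, of which 7 were kept as cells in both. cd74a had 874 UMIs in mutant cells, against 6352 in wild-type cells, and cd74b had 501 in mutant cells, against 2693 in wild-type cells. These 3′ reads need not cover the mutated sequence, and the counts were lower in the library labelled mutant for both genes.

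Cells were clustered with all collagen genes left out, so that a collagen could be compared between clusters. Of 12 clusters, 7 took a name from their markers. Fibroblast-like cells (740 mutant, 584 wild-type) had 865 and 1036 CPM of dpt and 46.5 and 72.8 CPM of tcf21 in the mutant and wild-type libraries, where CPM is UMIs per 1000000 non-mitochondrial UMIs. Endothelial-like cells (683 mutant, 268 wild-type) were led by bmp6, vwf and edn2. Of 19 detected endothelial markers, 7 were over 2-fold higher there than in other cells. The 23 endothelial markers summed to 4316 CPM in mutant and 7311 CPM in wild-type cells of this class. The sums were 28302 and 27545 CPM in cluster 7, described below, and 17200 and 15491 CPM in endocardial-like cells. The endocardial gene spock3 stood at 182 CPM in mutant and 490 CPM in wild-type endothelial-like cells, below the 527 and 903 CPM of removed barcodes. There aqp8a.1, also endocardial, stood at 249 and 208 CPM, below the 820 and 771 CPM of removed barcodes. Likewise plvapb, a gene of fenestrated vessels, stood at 4.18 CPM in mutant and 0 in wild-type cells of this class. The removed barcodes held 11.6 and 10.2 CPM of plvapb. Endocardial-like cells (509 mutant, 312 wild-type) were led by aqp8a.1 and spock3, and epithelial-like cells (195 mutant, 280 wild-type) by s100a10a with krt15 and krt91. In epithelial-like cells 4 of 6 detected epithelial markers were over 2-fold higher than in other cells. The summed epicardial markers there, given below, exceeded the epithelial ones, and tcf21 stood at 29.8 CPM in mutant and 43.6 CPM in wild-type cells. Whether these cells are epicardial was not tested. Macrophage-like cells numbered 1303 in the mutant and 738 in the wild-type library, cardiomyocyte-like cells 86 and 279, and T or NK cell-like cells 33 and 24.

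Clusters that did not meet the naming limits are given by number. Cluster 3 (1097 mutant, 604 wild-type cells) was led by the contractile genes tagln and acta2. Last among its 10 leading genes stood postnb, which codes for a matricellular protein of activated fibroblasts. Cluster 7 (401 mutant, 92 wild-type) was led by rbp2a, cxcl12b and rgs5b, and 13 of 22 detected endothelial markers were over 2-fold higher there than in other cells. The median log2 fold of these detected markers was 1.53, against 0.83 in the endothelial-like class. Cluster 7 thus met the limits on its own markers and stayed unnamed by the rules against other types. Cluster 10 (133 mutant, 213 wild-type) had hp, ccl34b.8 and the chemokine genes ccl39.2, ccl39.5 and ccl39.1 among its 10 leading genes, with 9 of 16 macrophage markers over 2-fold. Cluster 1 (1886 mutant, 195 wild-type) was led by haemoglobin and cardiomyocyte genes, at a median of 36.5% mitochondrial UMIs in mutant and 26.5% in wild-type cells, and cluster 11 held 108 mutant cells and no wild-type cell. The border between the fibroblast-like class and cluster 3 moved with the way the cells were clustered, so comparisons between genotypes are also given with both as 1 class, an alternative chosen after seeing the data.

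Collagen RNA was abundant. The 23 genes took 61624 UMIs in mutant cells (0.612% of all non-mitochondrial UMIs) and 56279 in wild-type cells (1.04%). Fibrillar collagens made up 77.1% of these UMIs in mutant and 76.6% in wild-type cells, and type I alone 60.2% and 61.1%. Type V took 15.3% in mutant and 13.2% in wild-type cells, type VI 10.1% and 10.97%, type XII 9.87% and 10.2%, and type XI 1.58% and 2.196%. Basement membrane collagens took 2.29% and 1.49%. The counts are 1 per captured 3′ end and were not divided by transcript length. Reads of close paralogues, such as col1a1a and col1a1b, could be shared or dropped depending on how reads that match several genes were treated, which is not given in the sources used here.

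Fibrillar collagens were highest in fibroblast-like cells and cluster 3. Fibroblast-like cells held 9400.1 CPM [9225, 9578] in the mutant and 12618 CPM [12392, 12846] in the wild-type library. Cluster 3 held 8444 CPM [8315, 8575] in mutant and 14737 CPM [14523, 14954] in wild-type cells. The order of these classes was reversed between the libraries, with fibroblast-like cells above cluster 3 in mutants and below it in wild type. Against all other cells of the same library, the log2 difference was 1.19 [1.16, 1.22] in mutant and 0.86 [0.83, 0.89] in wild-type fibroblast-like cells, and 1.14 [1.11, 1.17] in mutant and 1.31 [1.28, 1.33] in wild-type cluster 3. Fibroblast-like cells held 23.0% of mutant and 27.7% of wild-type fibrillar UMIs, and cluster 3 held 34.4% and 41.9%.

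Endothelial-like and epithelial-like cells came next among the classes with little background RNA by the haemoglobin estimate given below. Endothelial-like cells held 4161 CPM of fibrillar collagen in mutants and 7503 in wild type, and epithelial-like cells 3989 in mutants and 6330 in wild type. Endocardial-like cells held 1736 and 1943 CPM, cluster 7 held 961 and 1417, macrophage-like cells 1035 and 855, and cluster 10, the lowest of all classes, 548 and 543. The few T or NK cell-like cells held 2812 and 1578 CPM, the mutant value on 111 UMIs. Intervals of endothelial-like and epithelial-like cells were apart in wild type and overlapped in mutants.

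**Figure D1:**
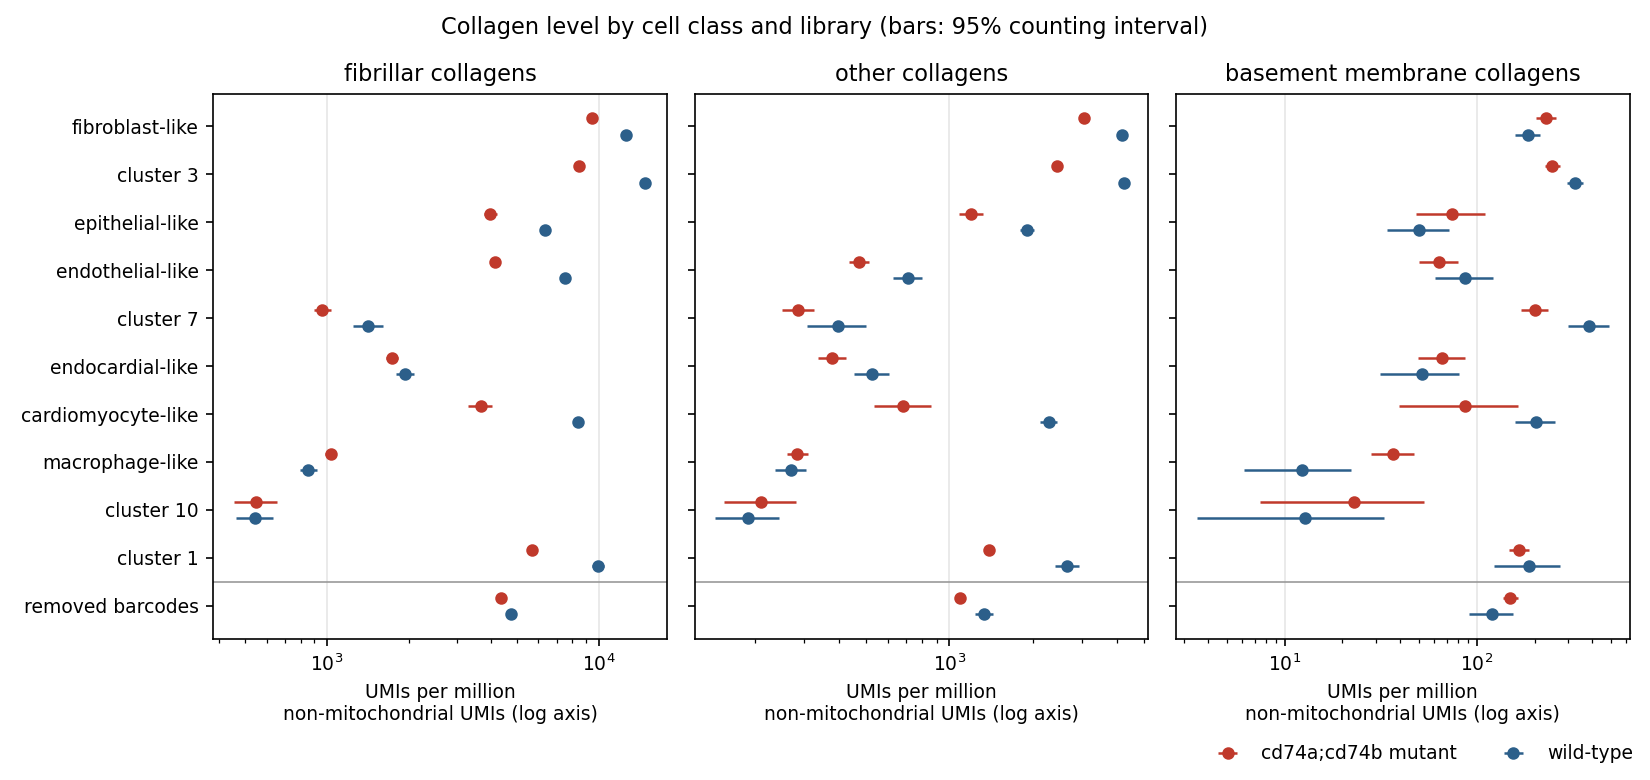
Level of fibrillar, other and basement membrane collagens in 10 cell classes (T or NK cell-like cells and cluster 11 are not drawn) and in the removed barcodes, in CPM on log axes, with 1 point per library (mutant above wild-type) and 95% Poisson intervals. Fibroblast-like cells and cluster 3 lie at the right for fibrillar and other collagens (9400.1 and 12618 CPM of fibrillar collagen in mutant and wild-type fibroblast-like cells), whereas cluster 7, low in those panels, stands beside them for basement membrane collagens (200.2 CPM in mutant and 384 CPM in wild-type cells).

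Droplets also capture free RNA, so fibrillar levels were set beside the amount that removed barcodes and haemoglobin UMIs would give. By that measure the background of fibrillar collagen in fibroblast-like cells was 908 CPM in mutants and 899 in wild type, far below the level seen. In endothelial-like cells it was 748 CPM in mutants and 1240 in wild type, and in epithelial-like cells 779 and 638. By this estimate all were well below the levels seen. Compared directly with removed barcodes, the fibrillar log2 difference of endothelial-like cells was −0.07 [−0.12, −0.025] in mutants and 0.66 [0.58, 0.74] in wild type. That of epithelial-like cells was −0.13 [−0.21, −0.05] and 0.41 [0.34, 0.49], so in mutants neither class exceeded the removed barcodes. Endocardial-like cells stood nearer to the estimated background, with 1065 and 1492 CPM of background against 1736 and 1943 CPM observed. In macrophage-like cells it was 1023 CPM in mutants and 1196 in wild type, against 1035 and 855 CPM observed, so the level there was not above the estimate. The same held for cluster 10, with 789 and 934 CPM of background against 548 and 543 CPM observed. In cluster 7 the background was 776 CPM in mutants and 821 in wild type, against 961 and 1417 CPM observed. T or NK cell-like cells had 1121 and 1455 CPM of background against 2812 and 1578 CPM observed. Cardiomyocyte-like cells held 3674 and 8410 CPM of fibrillar collagen against an estimated background of 2876 and 5016 CPM, and cluster 1 held 5674 and 9955 CPM against 4370 and 6535 CPM, so the levels seen were above the estimate. The estimate stood for 65.7% of all UMIs in mutant and 105% in wild-type cardiomyocyte-like cells, and for 99.9% and 137% in cluster 1. A share above 100% cannot hold, and a share of 99.9% leaves almost no RNA to the mutant cells of cluster 1. Haemoglobin therefore gives no usable background in wild-type cells of these classes or in mutant cells of cluster 1. Set directly against removed barcodes, the fibrillar log2 difference of cardiomyocyte-like cells was −0.25 [−0.40, −0.11] in mutants and 0.82 [0.74, 0.90] in wild type, and that of cluster 1 was 0.38 and 1.07. How much of this collagen came from other cells was not tested.

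Shares of single cells gave a like order. With every cell thinned to 500 non-mitochondrial UMIs, 95.8% of mutant and 96.4% of wild-type fibroblast-like cells had a fibrillar UMI, and 95.1% and 96.8% of cluster 3. The share was 81.2% [78.1, 84.1] in mutant and 90.5% [86.3, 93.8] in wild-type endothelial-like cells, and 81.0% [74.8, 86.3] and 90.3% [86.2, 93.5] in epithelial-like cells. In macrophage-like cells, whose fibrillar level was at or below the estimated background, it was 35.8% in mutants and 28.7% in wild type. Macrophages are known to express collagen genes in the injured zebrafish heart, and the source of these UMIs was not tested. Without thinning, the share in macrophage-like cells was 57.3% and 48.9%, at median depths of 1083 and 1023 UMIs, and in endothelial-like cells it was 96.9% and 98.1%, at 1343 and 1182 UMIs. Thinning left out 1 mutant and 5 wild-type endothelial-like cells and 8 and 10 macrophage-like cells.

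Type I chains were the most abundant collagens of fibroblast-like, endothelial-like and epithelial-like cells and cluster 3. col1a2, the alpha 2 chain, stood at 3193 CPM in mutant and 4237 CPM in wild-type fibroblast-like cells, and at 2725 and 4346 CPM in cluster 3. col1a1b, 1 of 2 zebrafish copies of the alpha 1 chain, stood at 2549 and 3459 CPM in fibroblast-like cells, and col1a1a, the other copy, at 1616 and 2557 CPM. In endothelial-like cells the 3 genes were close together, at 1156 and 2023 CPM for col1a2, 1151 and 2005 CPM for col1a1b, and 999.6 and 2190 CPM for col1a1a. In fibroblast-like cells col1a1a was clearly the lowest of the 3.

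The balance of both alpha 1 genes differed between the classes. The ratio of col1a1a to col1a1b was 0.87 [0.80, 0.94] in mutant and 1.09 [0.99, 1.205] in wild-type endothelial-like cells. It was 0.63 [0.60, 0.67] and 0.74 [0.70, 0.78] in fibroblast-like cells, 0.58 [0.55, 0.61] and 0.65 [0.62, 0.68] in cluster 3, and 0.53 and 0.67 in epithelial-like cells. The removed barcodes, used as a stand-in for free RNA, gave 0.74 [0.70, 0.77] in mutants and 0.90 [0.80, 1.01] in wild type. They may also hold shallow or damaged cells, which was not tested. The endothelial-like ratio lay above that of fibroblast-like cells, cluster 3 and removed barcodes in each library, with intervals apart except from wild-type removed barcodes. Endocardial-like cells gave 0.86 [0.73, 1.00] in mutants and 0.94 [0.76, 1.16] in wild type, with intervals that overlapped those of endothelial-like cells. The alpha 1 chains together against col1a2 gave 1.86 in mutant and 2.07 in wild-type endothelial-like cells and 1.68 and 2.05 in endocardial-like cells. They gave 1.304 and 1.42 in fibroblast-like cells and 1.41 and 1.51 in removed barcodes.

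Type V is built from col5a1 with col5a2a and, in part, col5a3a. col5a1 stood at 1443 CPM in mutant and 1540 CPM in wild-type fibroblast-like cells, and at 1299 and 2050.1 CPM in cluster 3. col5a2a, the alpha 2 chain, was at 354 and 358 CPM in fibroblast-like cells, 380.3 and 626 CPM in cluster 3, and 309 and 359 CPM in endothelial-like cells. Endothelial-like cells therefore had nearly the col5a2a of fibroblast-like cells with far less col5a1, at 524 CPM in mutants and 877 CPM in wild type. The ratio of col5a1 to col5a2a was 1.70 [1.49, 1.93] in mutant and 2.44 [2.00, 3.00] in wild-type endothelial-like cells, against 4.08 [3.66, 4.56] and 4.30 [3.82, 4.86] in fibroblast-like cells and 3.71 and 3.75 in removed barcodes. Endocardial-like cells gave 2.11 and 2.196, also below fibroblast-like cells. col5a3a was rare, with at most 49.7 CPM, in wild-type cluster 3.

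Type XI chains were low in endothelial-like cells. col11a1b stood at 163 CPM in mutant and 335 CPM in wild-type fibroblast-like cells and at 122 and 278 CPM in cluster 3, but at 15.1 and 30.8 CPM in endothelial-like cells. Its paralogue col11a1a stood at 88.4 and 139 CPM in cluster 3, 54.2 and 105 CPM in fibroblast-like cells, and 2.51 and 10.3 CPM in endothelial-like cells. The ratio of col11a1b to col1a1a was 0.02 [0.01, 0.02] in mutant and 0.01 [0.01, 0.02] in wild-type endothelial-like cells, against 0.10 and 0.13 in fibroblast-like cells, 0.08 and 0.11 in epithelial-like cells and 0.08 and 0.10 in removed barcodes. The endothelial-like cells had less col11a1b for their col1a1a than the removed barcodes of the same library.

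**Figure D2:**
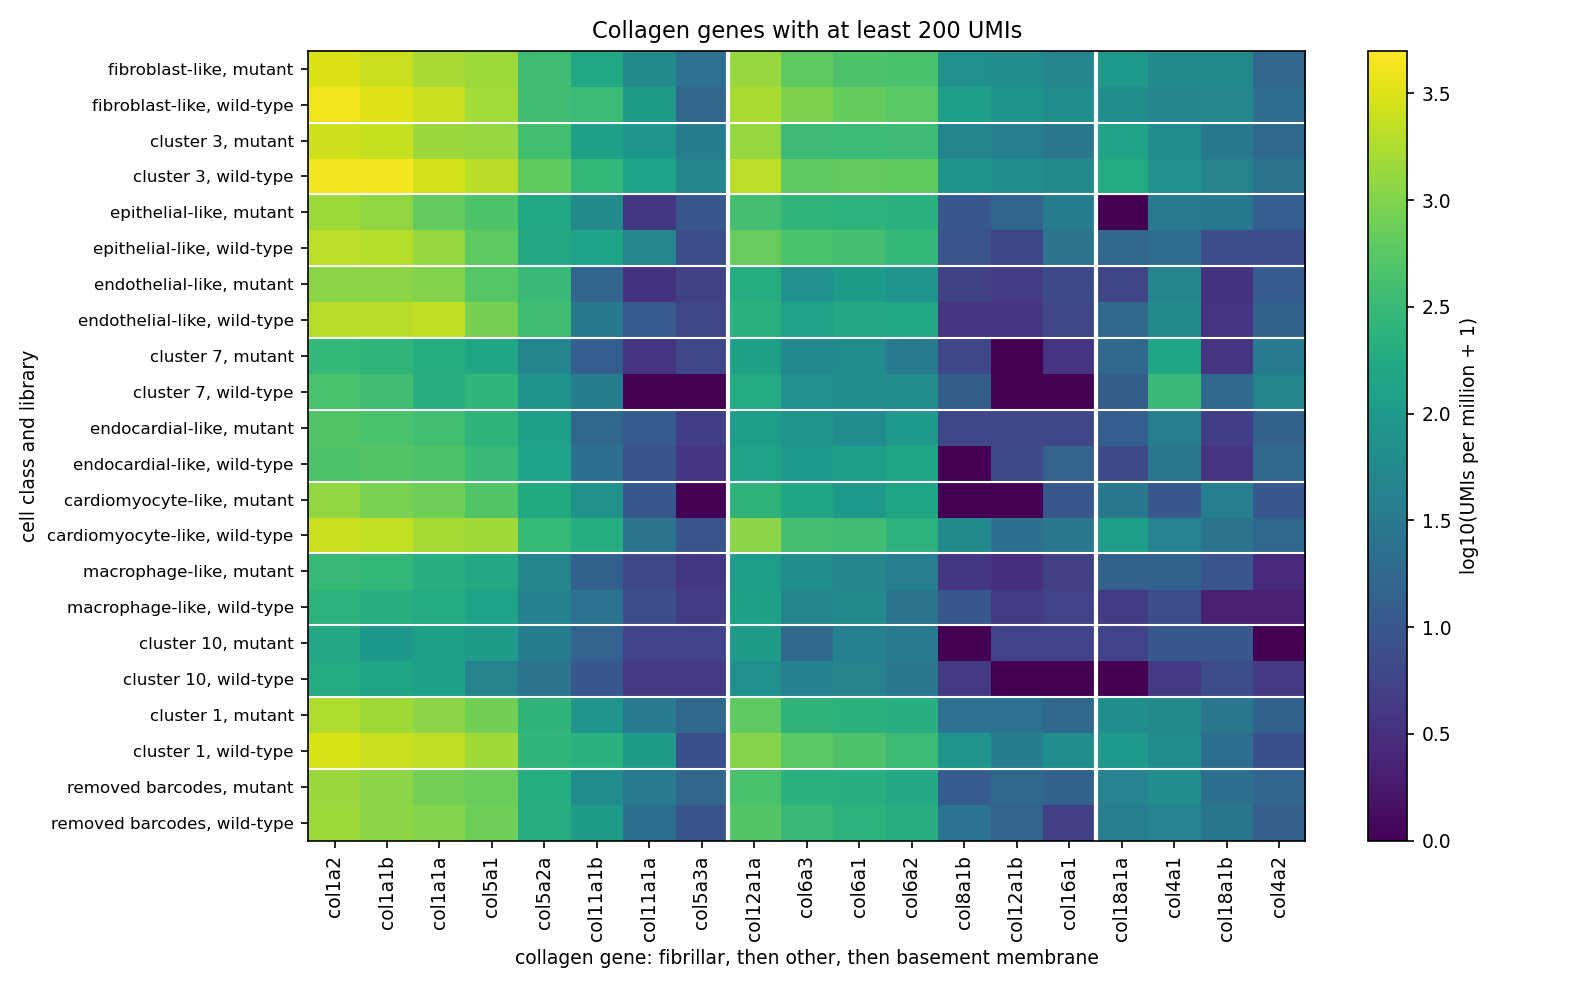
Level of the 19 collagen genes with at least 200 UMIs (columns) in each cell class and in the removed barcodes (rows, mutant above wild-type), as log10 of CPM plus 1. The endothelial-like rows are bright for the type I genes, up to 2190 CPM of col1a1a in wild-type cells, and dark for col11a1a, col8a1b and col18a1b, and the col4a1 column is brightest in cluster 7.

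The 4 members with fewer than 200 UMIs had 31 to 157 over both libraries. col2a1b, a type II chain best known from cartilage, had 19 UMIs in all mutant and 27 in all wild-type cells, and col27a1b had 19 and 12. col6a4a, a further type VI chain with 83 UMIs in mutant and 74 in wild-type cells, stood at 27.5 CPM in mutant and 36.9 CPM in wild-type fibroblast-like cells and at 7.23 and 9.79 CPM in cluster 3.

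Other collagens followed the fibroblast-like class more closely than the fibrillar group did. Their log2 difference from all other cells was 1.57 [1.51, 1.62] in mutant and 1.15 [1.097, 1.21] in wild-type fibroblast-like cells, at 3043 and 4167 CPM, and 1.32 and 1.33 in cluster 3, at 2446 and 4265 CPM. In endothelial-like cells the difference was −1.53 [−1.66, −1.41] in mutants and −1.75 [−1.93, −1.58] in wild type, at 472 and 710.3 CPM. The fibrillar group had differed there by only −0.21 and −0.09.

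col12a1a, a chain of the fibril-associated type XII, was the most abundant of them. It stood at 1330 CPM in mutant and 1704 CPM in wild-type fibroblast-like cells, 1304 and 2177 CPM in cluster 3, 391 and 692 CPM in epithelial-like cells and 192 and 233 CPM in endothelial-like cells. The ratio of col12a1a to col1a2 was higher in cluster 3, at 0.48 [0.46, 0.50] in mutants and 0.50 [0.48, 0.52] in wild type, against 0.42 and 0.40 in fibroblast-like cells. In endothelial-like cells it was 0.17 [0.14, 0.19] and 0.12 [0.09, 0.14], below the 0.31 and 0.35 of removed barcodes.

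Type VI differed between fibroblast-like cells and cluster 3 by chain. col6a3, which codes for the longest chain, stood at 604 CPM in mutant and 933 CPM in wild-type fibroblast-like cells, against 340.5 and 605 CPM in cluster 3. col6a1 stood at 457 and 667 CPM in fibroblast-like cells and 336 and 638 CPM in cluster 3, and col6a2 at 439 and 558 CPM and 344 and 631 CPM. The ratio of col6a1 to col6a3 was 0.76 [0.67, 0.85] in mutant and 0.71 [0.64, 0.79] in wild-type fibroblast-like cells, against 0.99 [0.88, 1.101] and 1.05 [0.95, 1.17] in cluster 3. Of all collagen UMIs, type VI took 14.2% in mutant and 14.1% in wild-type epithelial-like cells, 12.1% and 12.98% in fibroblast-like cells, and 5.68% and 5.62% in endothelial-like cells.

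The rarer members of this group were also mostly found in fibroblast-like cells and cluster 3. col8a1b, a network collagen, stood at 71.4 CPM in mutant and 117 CPM in wild-type fibroblast-like cells, 45.5 and 82.4 CPM in cluster 3 and 4.18 and 2.56 CPM in endothelial-like cells. col16a1 stood at 47.3 and 62.3 CPM in fibroblast-like cells and, with only 12 and 15 UMIs, at 35.8 and 25.1 CPM in epithelial-like cells. col12a1b, the second type XII gene, stood at 59.4 and 82.3 CPM in fibroblast-like cells and at 37.2 and 63.6 CPM in cluster 3.

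**Figure D3:**
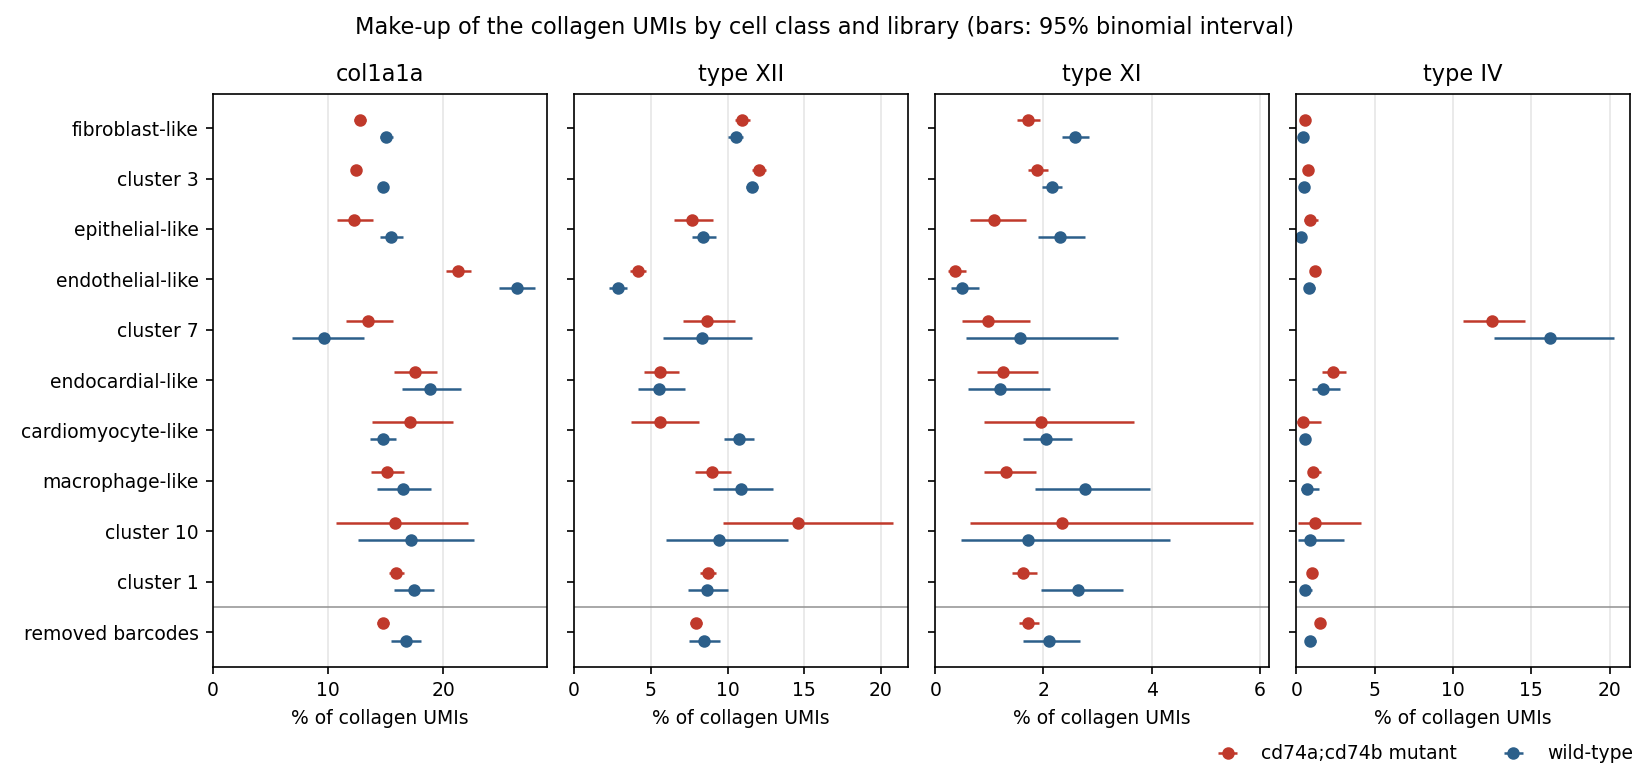
Share of col1a1a and of types XII, XI and IV in the collagen UMIs of each class, in percent, with 1 point per library (mutant above wild-type) and 95% binomial intervals. Among the classes drawn, endothelial-like cells have the highest share of col1a1a (21.3% in mutant and 26.4% in wild-type cells) with the lowest of types XII and XI, and cluster 7 the highest share of type IV (12.5% in mutant and 16.2% in wild-type cells).

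By share, the collagen of endothelial-like cells was the most weighted to type I. Type I took 70.4% [69.2, 71.6] of their collagen UMIs in mutants and 74.9% [73.4, 76.4] in wild type, against 58.1% and 60.4% in fibroblast-like cells and 59.6% and 58.8% in removed barcodes. Type XII took 4.15% and 2.84%, against 10.96% and 10.525% in fibroblast-like cells and 7.93% and 8.48% in removed barcodes. As a sum, fibroblast markers were lower in these cells than in the removed barcodes. They gave 1129 CPM in mutant and 1333 CPM in wild-type endothelial-like cells, against 3124 and 4113 CPM in removed barcodes. In fibroblast-like cells they gave 11166 and 12026 CPM. One of these markers, postna, was nonetheless among the 10 leading genes of the endothelial-like class. In endothelial-like cells dpt stood at 24.3 and 10.3 CPM and tcf21 at 1.67 and 0 CPM. There pdgfra, on 9 mutant and 10 wild-type UMIs, stood at 7.53 and 25.6 CPM, against 17.6 and 28.5 CPM in removed barcodes. There dcn, which codes for the proteoglycan decorin, stood at 128 and 362 CPM, against 153 and 193 CPM in removed barcodes. No doublet caller was run, and the part of mixed droplets in these levels was not tested.

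Types IV and XVIII of the basement membrane group were highest in different classes. Type IV was highest in cluster 7, at 181 CPM [152, 213] in mutant and 356 CPM [273, 456] in wild-type cells, against 55.2 and 54.3 CPM in all other cells of each library, a log2 difference of 1.71 [1.43, 1.98] and 2.71 [2.29, 3.11]. Cluster 7 made up 21.4% of type IV UMIs in the mutant and 17.9% in the wild-type library, from 5.59% and 2.56% of cells. The background of type IV there was estimated at 15.04 and 9.48 CPM. A type IV UMI was found in 10.8% [7.89, 14.2] of mutant and 15.2% [8.58, 24.2] of wild-type cells of cluster 7 thinned to 500 UMIs, against 1.16% and 0.412% of macrophage-like cells. Without thinning these shares were 24.4% and 46.7% in cluster 7, at median depths of 1292 and 1540 UMIs, and 1.995% and 0.949% in macrophage-like cells.

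The type IV signal came mostly from col4a1, at 147 CPM in mutant and 310 CPM in wild-type cells of cluster 7, with col4a2 at 33.6 and 45.9 CPM. These genes stand next to each other in the zebrafish reference gene table. Their ratio was 4.38 [2.84, 6.997] in mutants and 6.75 [3.19, 16.4] in wild type in cluster 7, 3.67 and 2.42 in fibroblast-like cells and 4.55 and 3.50 in removed barcodes, with overlapping intervals. In fibroblast-like cells col4a1 stood at 56.8 and 48.6 CPM, and in endothelial-like cells at 45.2 and 53.9 CPM, so the class led by bmp6 and vwf did not share the high type IV level of cluster 7.

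Cluster 3 came next after cluster 7 for type IV, at 82.2 CPM in mutant and 99.5 CPM in wild-type cells. Fibroblast-like cells held 72.3 and 68.6 CPM of type IV. Type XVIII was high in cluster 3 but low in cluster 7. Its first gene, col18a1a, stood at 135 CPM in mutant and 181 CPM in wild-type cells of cluster 3 and at 101 and 65.4 CPM in fibroblast-like cells, but at 16.8 and 11.5 CPM in cluster 7. The second gene, col18a1b, stood at 56.8 and 50.7 CPM in fibroblast-like cells, 29.97 and 44.9 CPM in cluster 3 and 2.51 and 2.56 CPM in endothelial-like cells. The ratio of col18a1a to col4a1 was 2.09 [1.68, 2.61] in mutant and 2.44 [1.90, 3.15] in wild-type cells of cluster 3, 1.77 and 1.35 in fibroblast-like cells, and 0.11 [0.06, 0.20] and 0.04 [0.00, 0.14] in cluster 7. Epithelial-like cells had 0 col18a1a UMIs in mutants, which allows up to 8.95 CPM, and 16.8 CPM in wild type.

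The next question was whether collagen levels differed between mutant and wild-type cells of a class. Over all genes counted in a class (at least 50 UMIs there, with 0.5 UMI added to each sum), the median of the log2 ratios, mutant over wild type, was itself below 0, at −0.30 in fibroblast-like cells, −0.43 in cluster 3, −0.52 in endothelial-like cells, −0.36 in epithelial-like cells, −0.33 in endocardial-like cells, −0.45 in macrophage-like cells and −0.41 in cluster 7. Without the added 0.5 UMI it was −0.51 in endothelial-like, −0.37 in epithelial-like, −0.32 in endocardial-like and −0.44 in macrophage-like cells and −0.39 in cluster 7. Ribosomal protein genes took a larger share in mutants, at 45.2% against 40.4% of UMIs in wild type in fibroblast-like cells and 52.0% against 42.6% in endothelial-like cells. Ratios are therefore given as measured, and some fibrillar and basement membrane ratios also relative to that median. Ratios given without such a value include this shift, and its part in the results was not tested.

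Fibrillar collagens were lower in mutants in the fibroblast-like class and cluster 3 together, at 8803 CPM in mutant and 13813 CPM in wild-type cells, a log2 ratio of −0.65 [−0.67, −0.63] and −0.25 relative to all genes. Apart, the ratio was −0.42 [−0.46, −0.39] in fibroblast-like cells (−0.13 relative to all genes) and −0.80 [−0.83, −0.77] in cluster 3 (−0.37). When cells were clustered without scaling genes within each library, the ratio of the fibroblast-like class alone was 0.18, whereas both classes together gave −0.66. The ratio was −0.85 [−0.92, −0.78] in endothelial-like cells (−0.33) and −0.67 [−0.76, −0.58] in epithelial-like cells (−0.31). It was −0.16 [−0.30, −0.03] in endocardial-like cells, which is 0.17 relative to all genes, so there the direction depended on the scale. In the removed barcodes, where the median of all genes was −0.07 (−0.04 without the added 0.5 UMI), the fibrillar ratio was −0.12 [−0.18, −0.06].

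Markers of several cell types differed between the libraries in the same classes, and their part in these ratios was not tested. In the fibroblast-like class and cluster 3 together, the 17 fibroblast markers (17 detected in mutants, 14 in wild type) summed to 8451 CPM in mutant and 10967 CPM in wild-type cells, and the 12 epicardial markers (12 and 11 detected) to 8787 and 14704 CPM. The 20 cardiomyocyte markers (19 and 20 detected) went the other way, at 4211 CPM in mutant and 2572 CPM in wild-type cells, as did the 23 endothelial markers, all detected, at 2771 and 1707 CPM. aqp8a.1, an endocardial gene, stood at 141 and 35.4 CPM there. In endothelial-like cells the 23 endothelial markers (22 and 21 detected) summed to 4316 CPM in mutants, below the 7408 CPM of mutant removed barcodes, and to 7311 CPM in wild type, above the 5707 CPM of wild-type removed barcodes. Among them cdh5, for the junction protein VE-cadherin, stood at 290.3 and 695 CPM, vwf at 192 and 497 CPM, and kdrl, for a VEGF receptor, at 48.5 and 151 CPM. In removed barcodes cdh5 stood at 225 and 207 CPM, vwf at 74.1 and 132 CPM and kdrl at 59.1 and 77.3 CPM. Unlike the sum, cdh5 and vwf were thus above the removed barcodes in both libraries, and kdrl only in wild type. The 15 epithelial markers (7 and 5 detected) summed to 1626 CPM in mutant and 5806 CPM in wild-type endothelial-like cells. In epithelial-like cells they (9 and 7 detected) summed to 4998 and 8612 CPM, and the epicardial markers (10 and 11 detected) to 10921 and 21024 CPM.

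The types did not share 1 ratio. Type XI was lowest relative to wild type, at −1.02 [−1.25, −0.79] in fibroblast-like cells, −0.99 [−1.18, −0.80] in cluster 3 and −1.75 [−2.54, −1.04], on 19 mutant and 114 wild-type UMIs, in epithelial-like cells. Type V was close to equal in fibroblast-like cells, at −0.07 [−0.16, 0.02], and at −0.67 [−0.74, −0.60] in cluster 3. Type I lay between them in fibroblast-like cells, at −0.48 [−0.52, −0.44], and at −0.83 [−0.87, −0.80] in cluster 3. The interval of type XI was apart from those of types I and V in fibroblast-like and epithelial-like cells, and in cluster 3 from that of type V.

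**Figure D4:**
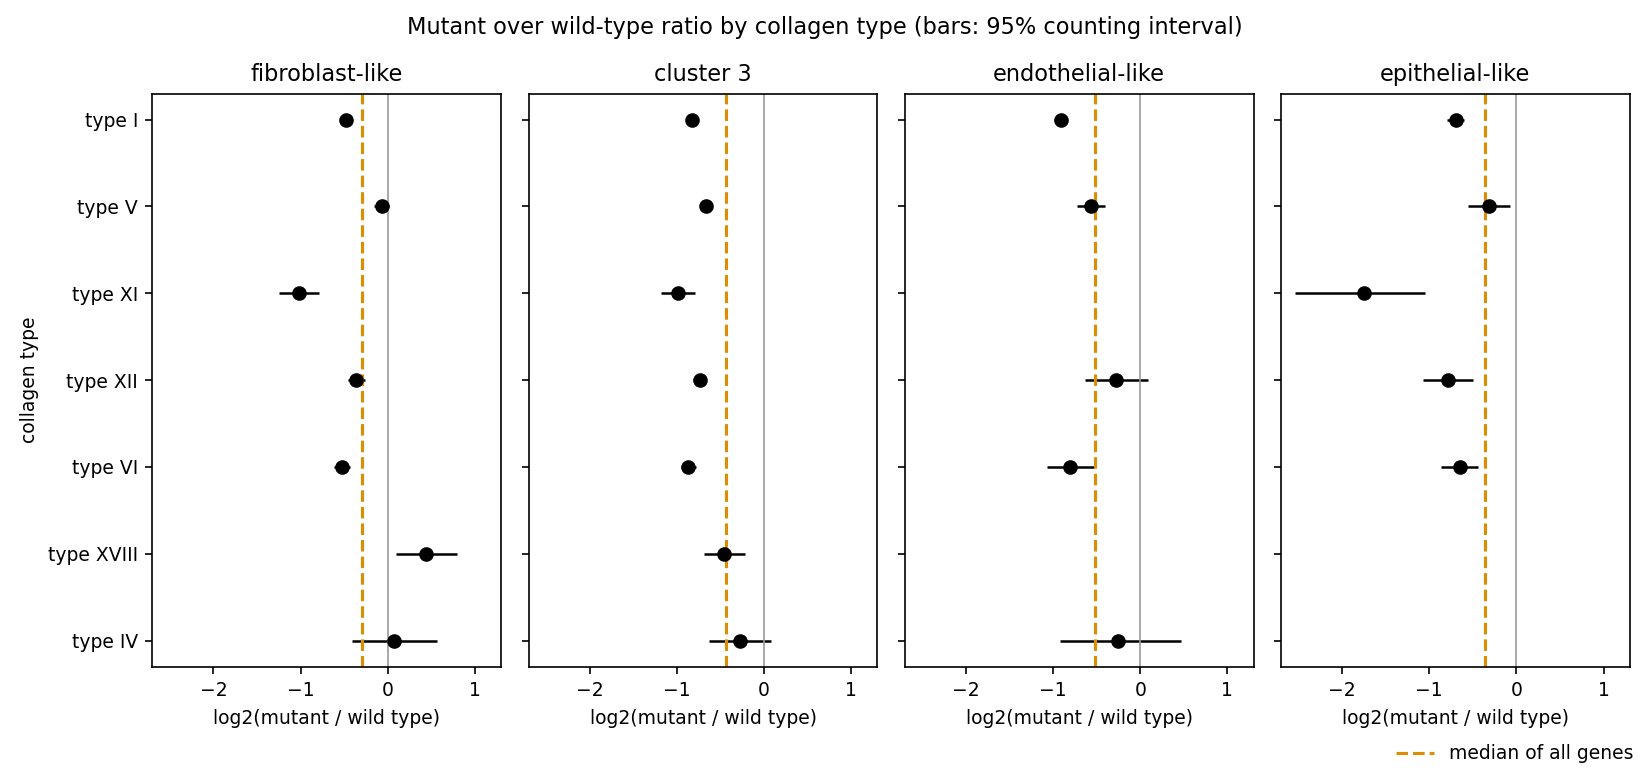
Log2 ratio of mutant over wild type for 7 collagen types in 4 classes, with 95% counting intervals, for types with at least 50 UMIs in the class. The dashed line marks the median of all genes (−0.30, −0.43, −0.52 and −0.36 from left to right), and type XI lies to its left in the 3 classes where it is shown.

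Among single genes, col11a1b was lower in all 3 of these classes. It had 189 UMIs (163 CPM) in mutant and 317 UMIs (335 CPM) in wild-type fibroblast-like cells, a log2 ratio of −1.04 [−1.31, −0.78], and the ratio was −1.19 [−1.44, −0.95] in cluster 3 and −1.39 [−2.21, −0.64] in epithelial-like cells. In the removed barcodes it was −0.78 [−1.22, −0.32]. col1a1a was lower by more than the other alpha 1 gene and col1a2. It gave −0.66 [−0.75, −0.57] in fibroblast-like cells, against −0.44 for col1a1b and −0.41 for col1a2. In cluster 3 it gave −1.04 [−1.11, −0.97], against −0.87 and −0.67, and in endothelial-like cells −1.13 [−1.26, −1.003], against −0.80 and −0.81. col1a1a was also the lowest of the 3 in removed barcodes, at −0.32, against −0.04 and −0.07, so the difference in balance was present there too.

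Counted over the members, few passed 2-fold. In the fibroblast-like class and cluster 3 together 1 of 20 members with at least 50 UMIs, col11a1b, was 2-fold or more lower, against 9.93% of all genes, and 0 were higher, against 1.97%. All 20 had a ratio below 0, as did 77.6% of all genes, with a median of −0.62 for the members and −0.40 for all genes. In fibroblast-like cells 1 of 18 (col11a1b) was past 2-fold lower, against 7.57% of genes. In cluster 3 it was 3 of 19 (col1a1a, col11a1b and col16a1), against 11.9%. In epithelial-like cells it was 1 of 10 (col11a1b), against 16.1%, in endothelial-like cells 1 of 10 (col1a1a), against 23.9%, and in endocardial-like cells 0 of 9, against 15.3%. The share past 2-fold lower was below or near that of all genes except in cluster 3. Once the median shift was removed, 0 members passed in fibroblast-like cells (2.97% of genes), cluster 3 (2.43%), endothelial-like cells (6.62%) or endocardial-like cells (4.89%). In epithelial-like cells col11a1b still passed (1 of 10, against 5.75% of genes). In these classes 0 members were 2-fold or more higher, where 2.55% of all genes were so in fibroblast-like cells, 2.39% in cluster 3, 3.41% in epithelial-like, 2.58% in endothelial-like and 2.71% in endocardial-like cells.

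Cardiomyocyte-like and macrophage-like cells differed from these classes in their counts. In cardiomyocyte-like cells 8 of 10 members were past 2-fold lower, against 24.8% of genes, and 0 higher, against 5.47%. The 17 fibroblast markers (12 detected in mutants, 15 in wild type) summed to 2529 CPM in mutant and 7643 CPM in wild-type cardiomyocyte-like cells, and their part in this was not tested. In macrophage-like cells 2 of the 9 members counted had a ratio below 0, as did 74.7% of all genes. The fibrillar ratio there was 0.28 [0.15, 0.40], on levels of 1035 CPM in mutant and 855 CPM in wild-type cells that were close to the estimated background in mutants and below it in wild type. It was −0.03 in cells with more than 500 genes.

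Other collagens differed between genotypes about as much as fibrillar ones. Their ratio was −0.66 [−0.70, −0.62] in the fibroblast-like class and cluster 3 together, −0.45 [−0.52, −0.39] in fibroblast-like cells and −0.80 [−0.86, −0.74] in cluster 3. Type VI gave −0.52 [−0.61, −0.43] and −0.87 [−0.96, −0.78] in these classes and type XII −0.36 [−0.46, −0.26] and −0.74 [−0.82, −0.66]. col16a1, on 55 mutant and 71 wild-type UMIs, gave −1.03 [−1.56, −0.50] in cluster 3.

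Basement membrane collagens did not follow the same course. In cluster 7 they stood at 200.2 CPM in mutant and 384 CPM in wild-type cells, a ratio of −0.94 [−1.36, −0.51] and −0.54 relative to all genes. There col4a1, on 114 UMIs in mutant and 54 in wild-type cells, gave −1.07 [−1.55, −0.58]. Some vessel genes of cluster 7 were lower in mutants too. There cdh5 stood at 217 CPM in mutant and 700.1 CPM in wild-type cells, plvapb at 91.7 and 321 CPM and kdrl at 156 and 367 CPM. By contrast vwf, on 53 mutant and 7 wild-type UMIs, stood at 68.4 and 40.2 CPM. All 23 endothelial markers together summed to 28302 and 27545 CPM. The epithelial markers (5 and 6 of 15 detected) summed to 2206 and 5928 CPM, and the part of either in the type IV ratio was not tested. In the fibroblast-like class and cluster 3 together the ratio was −0.14 [−0.29, 0.02], which is 0.27 relative to all genes. It was 0.31 [0.03, 0.60] in fibroblast-like cells and −0.40 [−0.59, −0.20] in cluster 3. Most of the fibroblast-like difference lay in col18a1a, with 117 UMIs in mutant and 62 in wild-type cells and a ratio of 0.62 [0.16, 1.09]. Assigning cells by their own marker UMIs turned the basement membrane ratio of fibroblast-like cells to −0.44, so it depends on where the border of that class is drawn.

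Genes for proteins that modify, fold and cross-link collagen chains mostly lay on the same side as the collagen genes. Of 49 listed genes 43 were in the files and 25 had at least 50 UMIs in the fibroblast-like class and cluster 3 together. Of these 24 had a ratio below 0, as did 77.6% of all genes, with a median of −0.61 against −0.40 for all genes. Past 2-fold, 5 were lower, against 9.93% of all genes, and 0 higher, against 1.97%. loxa, a lysyl oxidase that cross-links collagen, had 111 UMIs in mutant and 246 in wild-type cells, a ratio of −1.66 [−1.996, −1.33]. The prolyl hydroxylase genes p4ha1b, p3h1 and p3h3 gave −1.197, −1.11 and −1.32, and pcolce2b, for an enhancer of procollagen cleavage, −1.055 [−1.204, −0.91]. serpinh1b, for the collagen chaperone HSP47, gave −0.74 [−0.91, −0.57]. p4hb, for a subunit of prolyl 4-hydroxylase that is also a general protein disulphide isomerase, was the exception, at 483 CPM in mutant and 275 CPM in wild-type cells, a ratio of 0.81 [0.68, 0.95], and it was 1.04 in the removed barcodes as well.

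In endothelial-like cells loxa ran the other way, with 66 UMIs (55.2 CPM) in mutant and 10 UMIs (25.6 CPM) in wild-type cells, a ratio of 1.11 [0.14, 2.23]. There serpinh1b gave −1.42 [−1.91, −0.92] and dcn −1.50 [−1.84, −1.16]. For this class 14 genes of the list were counted, of which 4 were 2-fold or more lower, against 23.9% of all genes, and 1 higher, against 2.58%.

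Collagen receptors were sparse. Of 23 listed 21 were in the files and 3 had at least 50 UMIs in the fibroblast-like class and cluster 3 together. itgb1a, 1 of the integrin beta 1 genes, had 8 UMIs in mutant and 47 in wild-type cells, a ratio of −3.07 [−4.36, −1.97], while ddr2a, for a receptor that binds fibrillar collagen, had 32 and 23 (−0.03). mrc1b, for a mannose receptor family member, stood at 252 CPM in mutant and 721 CPM in wild-type macrophage-like cells, −1.51 [−1.69, −1.34], and at 329 and 984 CPM in cluster 10. Of 15 collagen-binding proteoglycans and related genes 14 were in the files and 4 were counted in the fibroblast-like class and cluster 3 together, with 0 past 2-fold, where 9.93% of all genes were lower and 1.97% higher. Of these dcn gave −0.75 [−0.88, −0.63], lum, for lumican, −0.51 [−0.71, −0.32], thbs2a −0.55 and prelp 0.47 [−0.18, 1.14].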

How the data were processed

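Single-cell RNA libraries were made with the Chromium 3′ v3.1 chemistry from 2 pools of ventricles, 1 per genotype. The deposited values are UMI counts per gene and barcode, not normalized. The authors aligned reads to danRer11 and counted with STARsolo, and used Scanpy, per the submitters' notes, and the annotation release is not given in the sources used here. Barcodes with more than 300 genes and at most 70% of UMIs in the 13 mt-named genes were kept. With scanpy 1.11.5, 2000 variable genes without collagens, the collagen-related lists and mitochondrial and ribosomal genes were scaled within each library, and 50 components, 15 neighbours and Leiden resolution 1 gave 12 clusters. To be named, a cluster had to hold 3 or more markers past 2-fold with a median log2 fold of 0.5 or above. It also had to lead by 0.5 any type of another family that met these limits. Vessel types, mesenchymal types and blood types each formed a family. No type of another family could have as many markers among the 10 leading genes as the cluster's own family. Rebuilt names may differ from the study's. No doublet caller was run.

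UMIs were summed per class and library and divided by all UMIs outside 37 mitochondrial genes. Intervals at 95% were exact (Poisson for levels, Clopper-Pearson for shares and ratios of sums; scipy 1.17.1), and functions were tested on simulated data. Calls were 2-fold changes in genes with at least 50 UMIs in a class. Members had 20 or more UMIs. Those with at least 200 were described by class, those below by counts with up to 3 of each group named, and any with 50 in a class could be named for its ratio. Background RNA was estimated from removed barcodes scaled by haemoglobin UMIs. For 0 UMIs the limit is 3 counts. Members, lists, naming limits and tests were chosen with earlier results of these data known. Gene neighbours come from the GRCz12tu table, so no positions are given.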

Additional observations from a re-analysis of the deposited data

Results flagged for a closer look

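Opposite directions between classes were seen for 2 groups, and the differences between classes were not tested. Fibrillar collagens gave a log2 ratio of mutant over wild type of 0.28 in macrophage-like cells and −0.85 in endothelial-like cells. Basement membrane collagens gave 0.31 in fibroblast-like and 1.57 in macrophage-like cells, the last on 64 mutant and 11 wild-type UMIs, and −0.94 in cluster 7. In macrophage-like cells the basement membrane level was 36.7 CPM in mutant and 12.4 CPM in wild-type cells, beside an estimated background of 35.1 and 30.2 CPM.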

How the results depend on the processing

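No paired analysis was possible because each genotype has 1 library, and for the same reason no replicate could be left out. Ratios are log2 of mutant over wild type. Clusters without scaling within each library (chosen after seeing the data) turned the fibroblast-like ratio to 0.18 for fibrillar, 0.16 for other and −0.17 for basement membrane collagens. In that class the basement membrane ratio was −0.44 by marker classes, −0.0119 as a mean over cells, 0.0237 at resolution 2, 0.32 [−0.07, 0.71] at 300 genes or more, and 0.0746 for type IV alone. In cluster 3 it was −0.12 at resolution 0.5, −0.57 [−1.46, 0.37] by marker classes, −0.28 for type IV alone, 0.033 by median-gene scaling and −0.18 without ribosomal genes, and col18a1a gave 0.0058 there by median-gene scaling. The macrophage-like fibrillar ratio was −0.0289 over 500 genes, 0.12 at resolution 2 and 0.59 as a mean over cells. Means over cells gave fibrillar ratios of −0.30 (fibroblast-like), −0.67 (cluster 3), −0.51 (both together) and −0.76 (endothelial-like), and −0.32, −0.71 and −0.54 for other collagens in the first 3. Background subtraction gave fibrillar ratios of −0.84 in cluster 3, −0.68 in both together and −1.04 in endothelial-like cells.

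Against other cells, in mutant and then wild-type libraries, means over cells gave fibrillar differences of 1.14 and 1.03 (fibroblast-like), 1.07 and 1.39 (cluster 3), and −2.18 and −3.31 (macrophage-like), and 1.37 for other collagens in wild-type fibroblast-like cells. Background subtraction gave 1.43 in mutant fibroblast-like cells, 1.84 there for other collagens, and 1.41 and 1.35 in cluster 3. Its value of −8.62 in mutant macrophage-like cells has no weight, since the 1035 CPM [988, 1084] seen there do not exceed the 1023 CPM subtracted beyond counting error. Members lower by 1.5-fold numbered 5 of 18 in fibroblast-like cells (26.5% of all genes), 14 of 19 in cluster 3 (37.6%) and 7 of 10 in endothelial-like cells (45.2%). With median-gene scaling 0 were 2-fold lower in each of these classes (2.97%, 2.43% and 6.62% of all genes). By 1.5-fold, 2, 3 and 1 were lower (11.2%, 11.4% and 19.1% of all genes). In the higher direction 1 member, col18a1a, passed 1.5-fold in fibroblast-like cells (14.7% of all genes). There were 0 in cluster 3 (16.3%) and in endothelial-like cells (22.5%). In endothelial-like cells 2 of 11 passed 2-fold at 20 UMIs (28.6%), and 4 of 9 over 500 genes (27.6%). Over these alternatives the fibrillar ratio of both fibroblast classes together stayed between −0.76 and −0.25. Every class was 1 cluster, so clusters could not be taken apart, resolution 0.5 gave no separate fibroblast-like or endocardial-like class, and the 500-gene limit no cardiomyocyte-like class. Where no value or construction shows otherwise, the cause of these changes was not tested.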
